A study of Mus musculus with 28 samples.

Results

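The small RNA profile of alveolar macrophages (AM) from co-ex female mice was compared between ozone (O3) and filtered air (FA), with 4 libraries after each exposure. The members are all miRNAs that the deposited table for these 8 libraries lists, which are 368 of the 607 miRNA names in the 28 libraries of the series. The co-ex mice are humanized transgenic mice that carry the human surfactant protein genes SP-A1 and SP-A2 (variants 6A2/1A0) on a C57BL/6J background in which mouse SP-A is knocked out, so mouse SP-A was absent from both groups. The females were 12 weeks old and had been synchronized for the estrous cycle. They breathed FA or O3 for 3 h, and AM were recovered by bronchoalveolar lavage after 4 h of recovery, with no further sort named in the sources used here. Co-ex males, and KO females of the same background that lack SP-A and carry no transgene, had the same exposure and recovery times and serve for comparison. Because only miRNAs were measured, neither the human transgenes nor the loss of mouse SP-A can be checked in these values.

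A miRNA is a short RNA that guides an Argonaute protein to messenger RNAs, mostly through its seed, bases 2 to 8 from the 5′ end, and lowers their translation and stability. AM are the resident phagocytes of the air spaces. They meet inhaled oxidants such as O3 together with SP-A, a collectin that epithelial type II cells secrete and that binds AM. miR-21a, the let-7 family, miR-125a and miR-146 are among the miRNAs known from macrophages. miR-223 and miR-142a are confined more narrowly to blood cells, miR-142a not to myeloid ones.

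Mature sequences are given for the miRNAs that the comparison turns on, from the RefSeq miRNA table of GRCm38.p6, which matched 318 of the 368 rows by name. Capitals mark the seed. The first set had lower levels after O3 by group means, with miR-146a-5p and miR-181b-5p added because they share a seed with miR-146b-5p and miR-181a-5p. miR-486b-5p, miR-1957b and miR-145a-5p are named only.
miR-425-5p: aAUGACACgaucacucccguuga
miR-106b-3p: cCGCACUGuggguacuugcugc
miR-125a-5p: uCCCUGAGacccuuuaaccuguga
miR-342-3p: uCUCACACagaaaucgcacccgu
miR-146b-5p: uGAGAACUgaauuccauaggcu
miR-146a-5p: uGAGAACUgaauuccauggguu
miR-181a-5p: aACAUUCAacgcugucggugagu
miR-181b-5p: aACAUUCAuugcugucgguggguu
miR-361-3p: uCCCCCAGgugugauucugauuugu
miR-451a: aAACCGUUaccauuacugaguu

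The second set had higher levels after O3 by group means. miR-429-3p, miR-200b-3p and miR-200c-3p share the seed AAUACUG, and miR-449a-5p has the seed of the miR-34 family. miR-34c-5p is named only.
miR-101a-3p: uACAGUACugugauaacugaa
miR-450a-5p: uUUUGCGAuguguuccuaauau
miR-872-5p: aAGGUUACuuguuaguucagg
miR-429-3p: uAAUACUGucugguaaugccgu
miR-200b-3p: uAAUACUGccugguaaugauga
miR-200c-3p: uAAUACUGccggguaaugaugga
miR-200a-3p: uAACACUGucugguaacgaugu
miR-449a-5p: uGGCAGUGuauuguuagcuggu
miR-21a-5p: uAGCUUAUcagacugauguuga

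The third set is shown because its levels set single libraries apart. It comes from a list of entries taken to resemble fragments of repeats or of other RNA classes, called repeat-like here. They are rich in G and C, with 85.7% in miR-2137 and 94.7% in miR-6538. The median over the 14 matched members of that list was 61.9%, and the median over the 304 matched sequences outside it was 47.8%. Exact matches in annotated transcripts of other genes were found for 6 of the 14, beside 95 of all 318 matched. None was found for those printed below, so their place on the list does not rest on such matches.
miR-2137: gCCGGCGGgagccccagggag
miR-6538: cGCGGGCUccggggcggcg
miR-6240: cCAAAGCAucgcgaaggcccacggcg
miR-3473e: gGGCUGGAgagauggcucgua

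Values are given as normalized units, meaning reads on a miRNA over the size factor that scales each library. The FA libraries held 93520 to 488993 reads on miRNAs and the O3 libraries 41542 to 260115, and in each library a value of 0 leaves room for up to 3 reads, which is 1.04 to 12.1 normalized units by library. These limits cover counting error only. Reads, miRNAs detected (287 to 351 after FA, 264 to 328 after O3) and the share of reads in the 10 most abundant miRNAs of a library (50.9% ± 3.62 after FA and 54.6% ± 1.98 after O3, SD, n = 4) did not differ beyond the spread of libraries, with exact two-sided permutation p of 0.8, 0.4 and 0.2, adjusted p of 0.8, 0.6 and 0.6 over the 3 measures, and a smallest possible p of 0.0286. The share of the single most abundant miRNA of a library, looked at after its values were seen and therefore not tested, was 8.51% to 13.7% after FA and 14.7% to 16.2% after O3, without overlap. It was not the same miRNA in each library. miR-2137 led in FA replicates 1 and 4 and in O3 replicate 1. miR-486b-5p led in FA replicate 3, and miR-21a-5p led in the remaining libraries. Replicates within a group differed by 21.8 to 433 times the variance that counting alone would give, in all 12 pairs of replicates. That ratio is pooled over miRNAs, and the abundant ones weigh most in it. For these the spread between libraries and not the counting sets the precision, while miRNAs at a few reads are limited by counting too. In the table, 185 miRNAs had a read in each of the 8 libraries and every listed miRNA had one in at least 4.

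The 10 most abundant miRNAs carried 45.9% of the normalized total. miR-21a-5p led with 10.5%, followed by miR-2137 with 6.79%, let-7a-5p with 4.80%, let-7f-5p with 4.41% and miR-125a-5p with 4.00%. miR-6538, miR-6240, miR-23a-3p, miR-30d-5p and miR-99b-5p each held between 2.76% and 3.66%. Of 12 myeloid markers 9 were listed, and together they took 10.5% to 17.5% of the reads after FA and 11.3% to 20.4% after O3. Of these, miR-223-3p and miR-142a-5p, chosen after their values were seen, varied more than that sum. miR-223-3p lay at 361, 1632, 272 and 321 normalized units after FA and 185, 256, 819 and 541 after O3. miR-142a-5p lay at 132.7, 691, 161 and 113 normalized units after FA and 60.3, 123, 266 and 228 after O3, and FA replicate 2 was the highest of the 8 libraries for both, with O3 replicate 3 next.

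O3 against FA was tested by limma on log2(value + 1) for 271 miRNAs that reached 5 normalized units in at least 4 libraries, with Benjamini-Hochberg adjustment over the 271 and a threshold of 0.1. The 97 miRNAs left out held 0.258% of the normalized total, the most abundant of them averaged 14.5 normalized units, and none was at 0 in all libraries of a group. Fold changes are on the log2(value + 1) scale, which understates the change of low miRNAs. The labels number 4 libraries in a group and state that 4 animals were exposed, but do not tie a library to an animal. The study's text counts the animals of its miRNA measurements as mice, and a library is taken here as 1 of them. The p-values measure the spread between these libraries.

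One miRNA was called, miR-486b-5p, which was lower after O3 (0.369% of the 271 tested), and no miRNA was called higher. At an unadjusted p under 0.05 stood 16 miRNAs (5.9%), of which 5 were higher (1.85%) and 11 lower (4.06%). On the scale of single libraries, 11 miRNAs had no overlap between exposures (4.06%), 4 with all O3 libraries above (1.48%) and 7 with all below (2.58%). A log2 fold change of at least 1 was reached by 23 upward (8.49%) and by 43 downward (15.9%). On the recovered reads, unadjusted p under 0.05 went to 14 by edgeR's quasi-likelihood test (5.17%), 15 by its exact test (5.54%) and 20 of 267 by DESeq2 (7.49%), and each called 1 miRNA. Of all 271, 117 lay above 0 (43.2%) and 154 below (56.8%), around a median log2 fold change of -0.16. The standard error of a fold change had a median of 0.80, which was 0.46 among the 36 miRNAs averaging at least 1000 normalized units and 1.19 among the 82 averaging under 20.

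**Figure D1:**
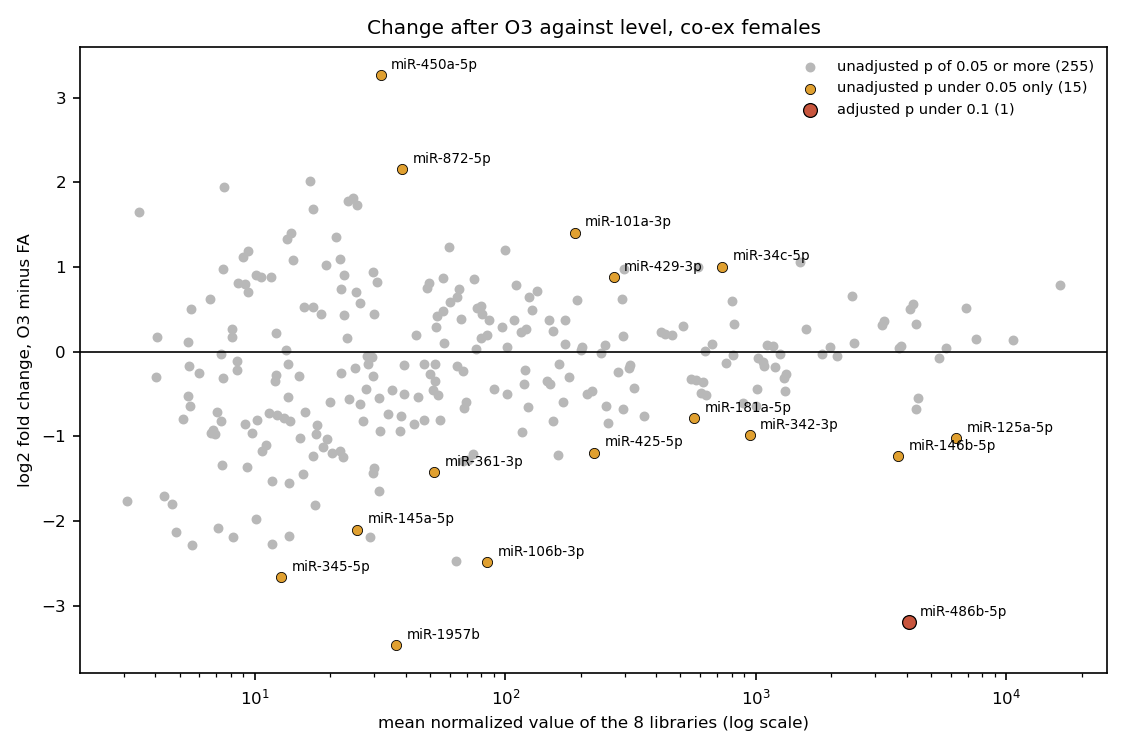
Log2 fold change of O3 against FA (y axis) over the mean normalized value of the 8 libraries (x axis, log scale), 1 point for each of the 271 miRNAs tested in co-ex females. Orange points had an unadjusted p under 0.05 and the red point, miR-486b-5p, an adjusted p under 0.1; the scatter narrows from left to right, and miR-486b-5p at -3.19 stands far below other miRNAs of its abundance.

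miR-486b-5p, a miRNA abundant in red blood cells and their precursors, was lower after O3, with an FA mean 14.9 times the O3 mean. Its values were 3149, 2134, 22316 and 3101 normalized units after FA and 511, 657, 432 and 456 after O3. All FA libraries were above all O3 libraries, and FA replicate 3 was far above the other FA libraries. The log2 fold change was -3.19 (standard error, SE, 0.61, 95% interval -4.50 to -1.89, limma adjusted p = 0.0341). Without FA replicate 3 it was -2.44 and still called (limma adjusted p = 0.0130). The call was lost without O3 replicate 2 (limma adjusted p = 0.134) and without O3 replicate 4 (limma adjusted p = 0.119), while the fold change stayed at -3.32 and -3.14. DESeq2 gave it no p under its cutoff on Cook's distance, and an adjusted p of 4.78e-06 without that cutoff, chosen after seeing the data. The miR-486a and miR-486b copies of the mouse share their 5p sequence, so reads of the pair cannot be told apart, and miR-486b-5p was the only form listed.

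The other miRNAs of red cells lay lower after O3 as well. miR-451a, which Argonaute 2 matures without Dicer and which is typical of red cells, lay at 10.5, 7.26, 59.4 and 6.21 normalized units after FA and 4.02, 3.44, 2.37 and 0 after O3. Every FA library was above every O3 library, at low levels, and the log2 fold change was -2.28 (SE 1.07, limma adjusted p = 0.778). miR-144-5p, from the same transcript as miR-451a, lay at 2.63, 16.6, 13.97 and 7.76 normalized units after FA and 0, 0, 0.591 and 15.5 after O3, so that O3 replicate 4 was among the FA values, with a log2 fold change of -2.08 and an adjusted p of 0.778 from limma. miR-144-3p was listed and too low to be tested. In all, 4 of the 7 red cell miRNAs were listed and 3 tested, 0 lay above 0 and 1 passed the test, with a median of -2.28 against -0.16 over all 271. Their summed level was 2167 to 22433 normalized units after FA and 438 to 663 after O3, nearly all of it miR-486b-5p. In these bulk libraries fewer cells of a type and less RNA per cell cannot be told apart, and the part of red cells in the lavage in this result was not tested.

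The hairpins of miR-144 and miR-451a lie next to each other at chr11:78073005-78073070 and chr11:78073170-78073241 on the plus strand of GRCm38.p6, outside any other annotated gene on that strand. All coordinates here are those of RefSeq hairpins on that build, with host genes from GENCODE vM21, since the deposited table gives names and no positions.

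**Figure D2:**
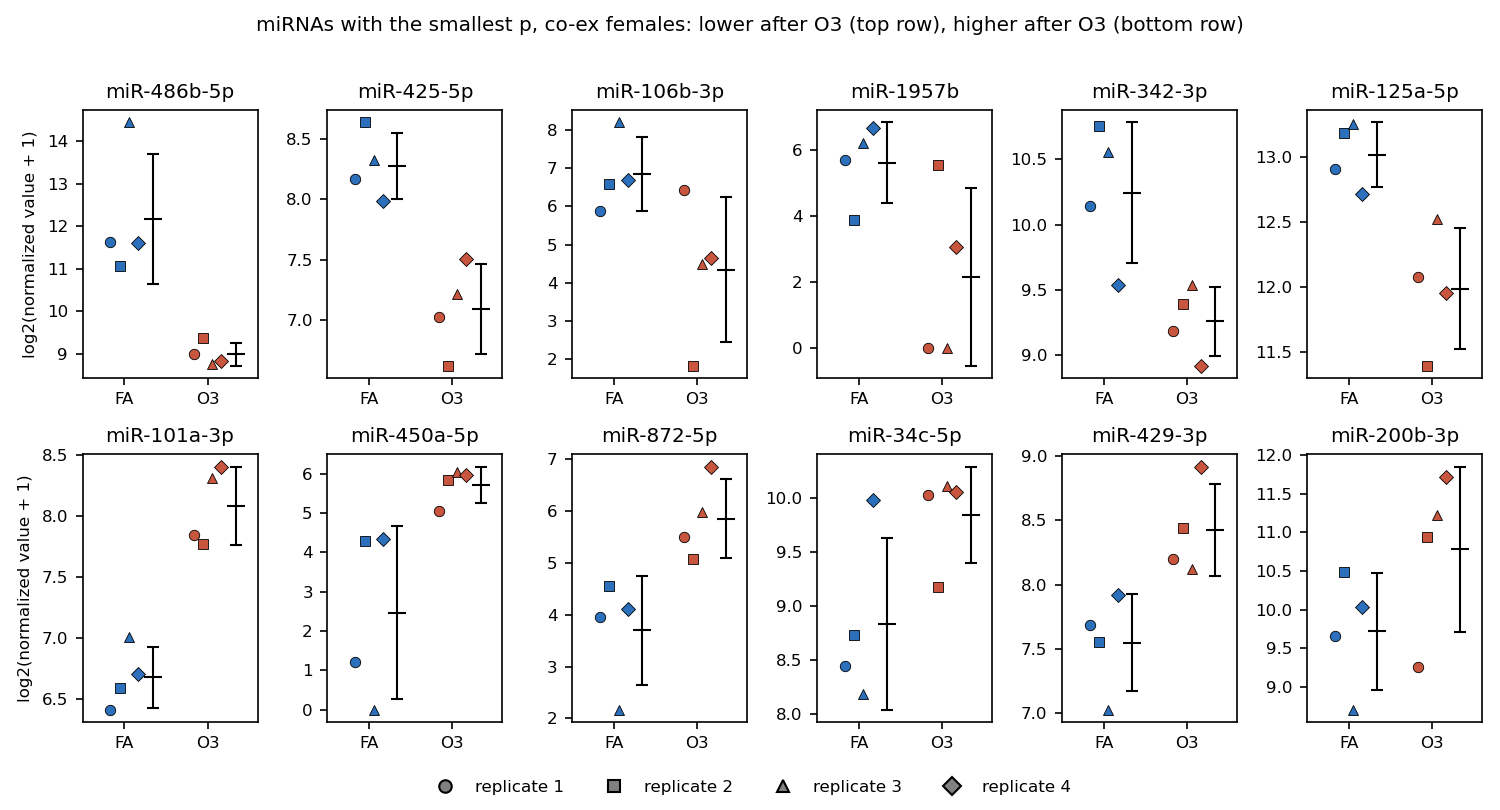
Log2(normalized value + 1) of the 6 miRNAs with the smallest p among those lower after O3 (top row) and the 6 among those higher (bottom row), 1 panel each with its own y axis, in FA (blue) and O3 (red) libraries of co-ex females. Symbols are replicates 1 to 4, the horizontal mark is the mean and the bar 1 SD of 4 libraries; miR-486b-5p, miR-425-5p, miR-125a-5p, miR-101a-3p, miR-450a-5p, miR-872-5p and miR-429-3p show no overlap between the groups.

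Of the 11 miRNAs with an unadjusted p under 0.05 and lower levels after O3 (4.06% of the 271), miR-125a-5p, miR-146b-5p, miR-342-3p and miR-181a-5p were the most abundant beside miR-486b-5p, and none of these 4 passed the adjusted threshold. miR-125a-5p, one of the most abundant macrophage miRNAs and a known brake on inflammatory signalling, lay at 7687, 9299, 9749 and 6726 normalized units after FA and 4335, 2699.5, 5884 and 3962 after O3. The groups did not overlap, and the log2 fold change was -1.03 (SE 0.41, limma adjusted p = 0.730). It is encoded at chr17:17830812-17830879 in an exon of Spaca6. miR-99b-5p, which is made from the same cluster, lay at 5045, 6985, 5525 and 3790.1 normalized units after FA and 2546, 4155, 4177 and 2511 after O3. O3 replicates 2 and 3 were above the lowest FA library, and its log2 fold change was -0.68 (SE 0.40, limma adjusted p = 0.778).

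miR-146b-5p and miR-146a-5p, which share the seed GAGAACU and dampen Toll-like receptor signalling, both lay below 0. miR-146b-5p was at 3116, 8935, 4653 and 3693 normalized units after FA and 1597, 968, 4198 and 2425 after O3. O3 replicate 3 lay within the FA range and the other O3 libraries under it. The log2 fold change was -1.23 (SE 0.51, limma adjusted p = 0.730). miR-146a-5p, which comes from another locus, was at 95.9, 780, 122 and 86.2 normalized units after FA and 132.7, 51.6, 338 and 82.9 after O3. The groups overlapped and FA replicate 2 stood out, with a log2 fold change of -0.51 (SE 0.73). miR-155-5p, which inflammatory signals induce in macrophages, was at 65.7, 242, 5.24 and 43.5 normalized units after FA and 72.4, 116, 174 and 81.7 after O3, and the groups overlapped (log2 fold change 1.20, SE 0.88, limma adjusted p = 0.841). Of the 14 miRNAs of the inflammatory list 7 were listed and 5 tested, with 3 above 0, 2 below, 1 at an unadjusted p under 0.05 and none called (median 0.30). The sign of that median is not stable, at -0.14 without FA replicate 1, -0.25 without FA replicate 4, -0.16 without O3 replicate 4 and -0.10 among miRNAs averaging at least 50 normalized units.

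Of the lymphocyte list, 3 of 4 miRNAs were listed and tested, and 0 lay above 0 (median -0.98, none called). miR-342-3p, from an intron of Evl at chr12:108658620-108658718, lay at 1127, 1720.1, 1499.9 and 742 normalized units after FA and 583, 669.5, 742 and 484 after O3. All O3 libraries were under FA replicates 1, 2 and 3, while FA replicate 4 was level with the highest of them (log2 fold change -0.98, SE 0.38, limma adjusted p = 0.730). miR-342-5p, the other arm of that hairpin, lay at 42.1, 57.1, 66.4 and 54.3 normalized units after FA and 28.2, 39.5, 42.0 and 16.1 after O3, apart by the small gap between FA replicate 1 and O3 replicate 3, and had a log2 fold change of -0.86 (SE 0.60). miR-150-5p, a miRNA of mature lymphocytes, was carried by 2 libraries, with 56.5, 912, 41.9 and 19.4 normalized units after FA and 12.1, 11.2, 195 and 48.3 after O3. The list's sum was 816 to 2690 normalized units after FA and 548 to 979 after O3, and its part in the results for other miRNAs lower after O3 was not tested.

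miR-181a-5p, which tunes antigen receptor signalling in lymphocytes and is also made by myeloid cells, lay at 702, 951, 625 and 600.1 normalized units after FA and 511, 315, 439 and 399 after O3. The groups did not overlap (log2 fold change -0.79, SE 0.36, limma adjusted p = 0.778). miR-181b-5p, with the same seed ACAUUCA and a locus beside each of those of miR-181a, had a log2 fold change of -0.59 (SE 0.55), and 3 of 3 tested members of the family lay below 0, or 2 of 3 by edgeR or DESeq2.

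miR-425-5p, whose hairpin at chr9:108568777-108568861 shares a transcript with miR-191, had no overlap between the groups. Its values were 286, 398, 319.5 and 253 normalized units after FA and 129, 97.1, 147 and 181 after O3. The log2 fold change was -1.19 (SE 0.40, limma adjusted p = 0.556), and the other arm, miR-425-3p, had -2.19 (SE 1.10) at a mean of 8.21 normalized units. miR-191-5p, at chr9:108568319-108568392, overlapped between the groups and lay at 357, 959, 258 and 248 normalized units after FA and 249, 435, 684 and 512 after O3, with a log2 fold change of 0.20 (SE 0.49, limma adjusted p = 0.918); the difference between miR-425-5p and miR-191-5p was not tested.

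miR-106b-3p, the minor arm of a hairpin in an intron of Mcm7 at chr5:138165737-138165818, lay at 57.8, 94.4, 289.9 and 102 normalized units after FA and 84.5, 2.58, 21.3 and 24.1 after O3. O3 replicate 1 was within the FA range and the other O3 libraries under it (log2 fold change -2.49, SE 0.88, limma adjusted p = 0.556). The other arm of that hairpin, miR-106b-5p, had the opposite sign, with a log2 fold change of 0.94. The main arms of the other hairpins in Mcm7 gave log2 fold changes of 0.25 (SE 0.54) for miR-93-5p and -0.68 (SE 0.47) for miR-25-3p. Also below 0 at an unadjusted p under 0.05 were miR-361-3p, miR-345-5p, miR-1957b and miR-145a-5p. miR-361-3p, in an intron of Chm on the X chromosome, lay at 81.5, 82.0, 78.6 and 55.1 normalized units after FA and 20.1, 15.5, 47.9 and 34.03 after O3, without overlap between the groups (log2 fold change -1.42, SE 0.60). The other arm of that hairpin, miR-361-5p, had a log2 fold change of 0.81. miR-345-5p, miR-1957b and miR-145a-5p averaged 12.7 to 36.7 normalized units and overlapped between the groups. Their log2 fold changes were -2.67 (miR-345-5p), -3.46 (miR-1957b) and -2.10 (miR-145a-5p), with standard errors of 0.92 to 1.24.

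Among the miRNAs higher after O3, miR-101a-3p had the smallest p. It is known to repress the histone methyltransferase Ezh2 and is encoded at chr4:101346945-101347027 in an exon of the non-coding gene E130102H24Rik. Its values were 84.1, 95.5, 127 and 103 normalized units after FA and 229, 217, 317 and 338 after O3. The lowest O3 library was well above the highest FA library, and the replicates of a group lay close together. The log2 fold change was 1.41 (SE 0.40, 95% interval 0.54 to 2.27, limma adjusted p = 0.494), which is not a call. DESeq2 on the reads called it (log2 fold change 1.45, adjusted p = 0.0792). edgeR on the same reads did not, with adjusted p of 0.629 by its quasi-likelihood test and 0.590 by its exact test. Its fold change stayed between 1.30 and 1.51 as each library was left out, with limma adjusted p of 0.275 to 0.922. The second locus of the family, miR-101b-3p at chr19:29135279-29135375 in an intron of Rcl1, lay at 52.6, 115, 83.8 and 199.5 normalized units after FA and 64.3, 156, 118 and 181 after O3. The groups overlapped there, with a log2 fold change of 0.27 (SE 0.54).

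miR-450a-5p had the highest log2 fold change of the 271, at a low level. It belongs to a cluster on the X chromosome with miR-322, miR-351, miR-503 and miR-542, which is known from growth arrest and differentiation, and its 2 hairpins lie at chrX:53048154-53048244 and chrX:53048299-53048367. Its values were 1.31, 18.7, 0 and 19.4 normalized units after FA and 32.2, 55.9, 65.1 and 61.9 after O3. The groups did not overlap, but FA replicates 1 and 3 were at 1 read and 0, within what 3 reads give, so that the log2 fold change of 3.26 (SE 1.04, limma adjusted p = 0.556) rests on few reads. Of the 8 tested members of the cluster 6 lay above 0, with a median of 0.99, and none was called. miR-351-5p, the most abundant of them, lay at 127, 153, 265 and 255 normalized units after FA and 201, 143, 248 and 218 after O3, with overlap (log2 fold change 0.06, SE 0.42). The median of the cluster stayed between 0.45 and 1.92 as each library was left out, lowest without FA replicate 3 and highest without O3 replicate 1.

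miR-872-5p, from an intron of Ift74, a gene of ciliary transport, at chr4:94665157-94665237, lay at 14.5, 22.5, 3.49 and 16.3 normalized units after FA and 44.2, 32.7, 62.1 and 114 after O3. The groups did not overlap (log2 fold change 2.15, SE 0.77, limma adjusted p = 0.556). The other arm of that hairpin, miR-872-3p, had a log2 fold change of -0.25.

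miRNAs of epithelial cells lay mostly higher after O3. Of the 16 on the list 15 were listed and tested, 11 lay above 0 (73.3%, against 43.2% of all 271) with a median of 0.74 against -0.16, 2 had an unadjusted p under 0.05 and none was called. The miR-200 family, which maintains the epithelial state by repressing Zeb1 and Zeb2, lay above 0 for the 3p arms of 5 of 5 members, with a median of 0.98. Without FA replicate 3, or without O3 replicate 3, 4 of 5 did. The 5p arms miR-200a-5p and miR-200b-5p, not counted there, had log2 fold changes of -0.97 and 0.57. miR-429-3p lay at 204.995, 187, 129 and 241 normalized units after FA and 294, 347, 278 and 483 after O3, without overlap (log2 fold change 0.88, SE 0.39, limma adjusted p = 0.778).

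miR-200b-3p, which has the same seed as miR-429-3p and a hairpin at chr4:156055681-156055750 in the same cluster, lay at 807, 1432, 417 and 1052 normalized units after FA and 611, 1969, 2384 and 3349 after O3. O3 replicate 1 was below 3 of 4 FA libraries, and the other O3 libraries were above all FA libraries (log2 fold change 1.06, SE 0.54). miR-200c-3p, from the second cluster of the family at chr6:124718322-124718390, lay at 352, 769.9, 141.4 and 351 normalized units after FA and 289.6, 644, 1001 and 1168 after O3, with the same library low (log2 fold change 1.00, SE 0.55). miR-200a-3p, again with overlap, had a log2 fold change of 0.98 (SE 0.57, limma adjusted p = 0.778).

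The miR-34 and miR-449 miRNAs, known from multiciliated cells, had 3 of 5 members above 0. miR-34c-5p lay at 348, 425, 289.9 and 1008 normalized units after FA and 1042, 578, 1105 and 1060 after O3, where FA replicate 4 was level with O3 replicates 1, 3 and 4 and O3 replicate 2 was within the FA range (log2 fold change 1.00, SE 0.44, limma adjusted p = 0.778). The other arm of the same hairpin had the opposite sign. miR-34c-3p lay at 258, 297, 76.8 and 202 normalized units after FA and 169, 138, 154 and 63.1 after O3 (log2 fold change -0.59, SE 0.53). miR-34b-3p, the most abundant of these miRNAs at a mean of 1829 normalized units, had a log2 fold change of -0.03 (SE 0.39), and miR-449a-5p had 1.24 (SE 0.70). miR-375-3p, of secretory and neuroendocrine epithelium, lay at 1754, 961, 877 and 1499 normalized units after FA and 1649, 933, 923 and 944 after O3 (log2 fold change -0.18, SE 0.39). The epithelial list as a whole took 2.30% to 5.32% of the reads after FA and 4.16% to 6.19% after O3, and its part in the results for other miRNAs was not tested.

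**Figure D3:**
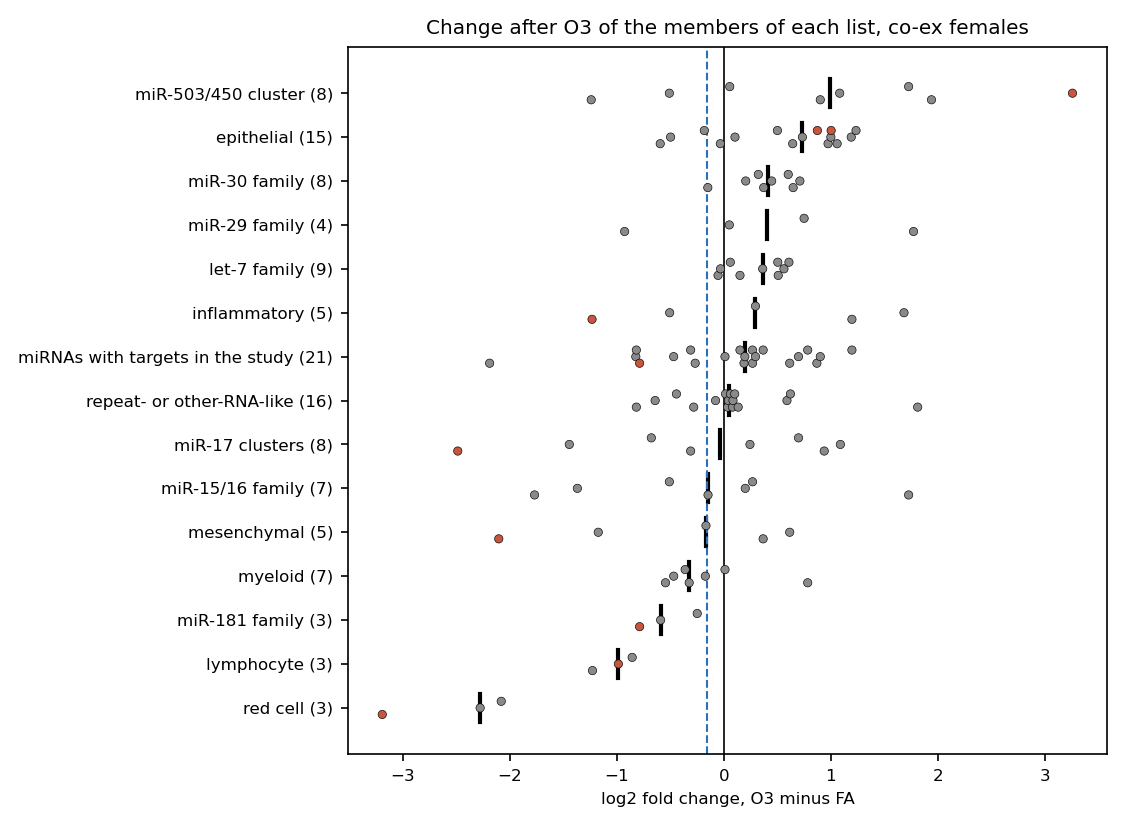
Log2 fold changes of O3 against FA (x axis) of the tested members of 15 lists of miRNAs in co-ex females, 1 point per miRNA, with the number tested in brackets; black bars are list medians, the dashed line is the median of all 271 miRNAs (-0.16) and red points had an unadjusted p under 0.05. The red cell, lymphocyte and miR-181 lists lie wholly below 0 and, of the 15 lists plotted, the miR-503/450 and epithelial lists have the highest medians.

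miR-21a-5p, the most abundant miRNA and one that inflammatory stimuli are known to raise, lay at 10609.8, 16839, 9591 and 10937 normalized units after FA and 12700.1, 23196, 21526 and 26050.4 after O3. The O3 libraries other than replicate 1 were above all FA libraries, and O3 replicate 1 was between FA replicates 2 and 4. The log2 fold change was 0.78 (SE 0.46, 95% interval -0.20 to 1.77, limma adjusted p = 0.778). Of the other abundant myeloid miRNAs, miR-23a-3p lay at 4414, 7588, 4683 and 4434 normalized units after FA and 3772, 2707, 4479 and 3359 after O3 (log2 fold change -0.54, SE 0.39), and miR-24-3p and miR-27a-3p, which share its transcript, had -0.17 and 0.01. Of the 7 tested members of the myeloid list 2 lay above 0, with a median of -0.32, and without FA replicate 2 it was 5 of 7 with a median of 0.09.

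The let-7 family, abundant miRNAs of differentiated cells, took 13.0% to 24.6% of the reads after FA and 11.4% to 26.7% after O3. Of its 9 tested members 7 lay above 0 with a median of 0.36 and none was called or had an unadjusted p under 0.05. let-7a-5p lay at 5338, 13096, 5982 and 4451 normalized units after FA and 3668, 7614, 10231 and 9928 after O3 (log2 fold change 0.15, SE 0.49), and let-7f-5p at 4187, 10701, 4287 and 3834 normalized units after FA and 3314, 9059, 10170.2 and 9907 after O3 (log2 fold change 0.51, SE 0.51). FA replicate 2 and O3 replicates 2 to 4 formed the upper values of both and O3 replicate 1 the lowest. Because members of this family are nearly identical in sequence, the division of reads among them is uncertain. In the miR-30 family 7 of 8 tested members lay above 0 with a median of 0.41, again with none called.

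Among the 231 tested miRNAs with a matched sequence, 26 seeds were shared by at least 2, 75 miRNAs in all, and in 15 of the 26 all members lay on the same side of 0. Many of these seeds had only 2 members, which often fall on the same side without any relation. The share that unrelated miRNAs would give was not computed, so the count does not show that members respond alike. The seed AAAGUGC of miR-17-5p and miR-93-5p had 4 of 4 members above 0 (median 0.82), AAUACUG 3 of 3 (median 1.00) and GGCAGUG of miR-34a-5p and miR-449a-5p 3 of 3 (median 1.19). The seed ACCCGUA of miR-99b-5p had 0 of 3 above 0 (median -0.68). None of the members of these 4 seeds was called, and the 4 were picked from the 15. The seed AUUGCAC of miR-92a-3p and miR-92b-3p was split, with 1 of 3 above 0.

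The 23 miRNAs for which the study lists target genes were chosen by the study on these samples, so their directions are not independent evidence. All 23 were listed and 21 tested, 14 lay above 0 with a median of 0.20 and 7 below, and none was called. miR-181a-5p was the only one of them with an unadjusted p under 0.05 and without overlap. miR-193a-5p had the lowest fold change, with 17.1, 31.5, 113 and 21.7 normalized units after FA and 0, 8.59, 24.3 and 13.6 after O3 (log2 fold change -2.19, SE 1.08, limma adjusted p = 0.778), and FA replicate 3 held the highest of its values. miR-155-5p had the highest. Log2 fold changes of others were 0.27 for miR-16-5p, -0.27 for miR-103-3p, -0.31 for miR-92a-3p, -0.47 for miR-320-3p, 0.30 for miR-125b-5p and 0.01 for miR-27a-3p, each with a standard error of 0.37 to 0.48. miR-17-5p, at a mean of 9.34 normalized units, and miR-1195 had 0.70 (SE 1.13) and -0.82 (SE 0.91). miR-151-5p had 0.19, miR-191-5p 0.20, miR-101b-3p 0.27, miR-340-5p 0.87, miR-503-5p 0.90, miR-143-3p 0.62, miR-199b-3p 0.37, let-7a-5p 0.15, miR-21a-5p 0.78 and miR-130b-5p -0.82. miR-130b-3p and miR-455-3p were too low to be tested.

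The repeat-like entries varied widely between libraries of the same exposure. Their list took 3.73% of the reads in FA replicate 2 and 22.2% to 29.7% in the other FA libraries, and 43.7%, 23.6%, 6.56% and 11.9% in O3 replicates 1 to 4. miR-2137 lay at 13068, 1408, 12509 and 12037 normalized units after FA and 25264, 11289, 1739 and 8121 after O3. miR-6538 lay at 9087, 649, 6207 and 7366 normalized units after FA and 11968, 6408, 1330.2 and 2988 after O3. Of the 20 entries on the list 17 were listed and 16 tested, 11 above 0 with a median of 0.05, but 3 of 16 above 0 without O3 replicate 1 (median -0.46), 3 of 17 without FA replicate 2 (median -0.58) and 5 of 17 without O3 replicate 2 (median -0.19). miR-2137 and miR-6538 had FA replicate 2 and O3 replicate 3 lowest and O3 replicate 1 highest, with log2 fold changes of 0.13 (SE 0.83) and 0.04 (SE 0.82).

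In the libraries where these entries were low, miR-30d-5p was high, with 1852, 10193, 2041 and 2115 normalized units after FA and 1552, 2429, 7302 and 7262 after O3 (log2 fold change 0.32, SE 0.64). FA replicate 2 and O3 replicates 3 and 4 also held the highest values of miR-223-3p. O3 replicate 1, the library with the fewest reads and the highest share of these entries, held the lowest O3 values of miR-21a-5p, let-7a-5p, let-7f-5p, miR-200a-3p and miR-200b-3p. In the other 20 libraries of the series the list took 0.799% to 13.2% of the reads. With the log2 share of the list as a covariate, chosen after the data were seen, 6 miRNAs were called in place of 1: miR-101a-3p higher, and miR-125a-5p, miR-146b-5p, miR-342-3p, miR-425-5p and miR-486b-5p lower. With the 5 libraries of high share alone (FA replicates 1, 3 and 4 and O3 replicates 1 and 2) 5 were called, all lower: miR-106b-3p, miR-133a-3p, miR-146b-5p, miR-1957b and miR-486b-5p. With the reads outside the list as the scale of each library 0 were called by limma, with 17 at an unadjusted p under 0.05. What RNA these entries come from was not tested.

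**Figure D4:**
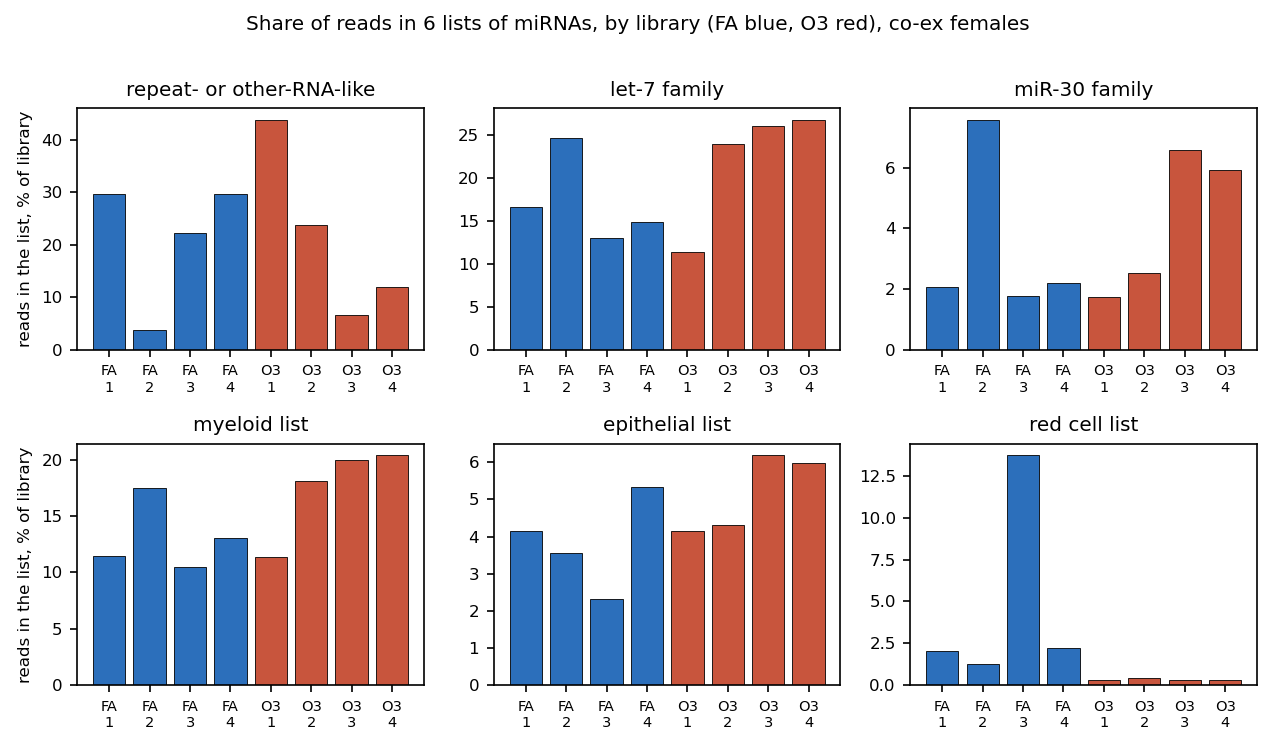
Share of the reads of a library (y axis, percent, from 0) that fell on 6 lists of miRNAs, 1 bar for each of the 4 FA (blue) and 4 O3 (red) libraries of co-ex females. The repeat-like list ranges from 3.73% to 43.7%, FA replicate 2 and O3 replicates 3 and 4 are the highest bars of the miR-30 panel, and the red cell list is higher in each FA library than in any O3 library; the widest 95% Wilson interval of a bar spans 0.954 percentage points.

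The response of co-ex females was set against that of co-ex males, which carry the same human genes, to ask whether it depends on sex. Each sex has its own set of libraries, normalized separately, so sex and library set cannot be told apart here. The values given are differences of the log2 fold changes of O3 against FA, from limma over the 16 co-ex libraries. No miRNA of 249 tested in both sexes passed limma's adjusted threshold, and 8 stood at an unadjusted limma p under 0.05 (3.21%). First among them was miR-486b-5p, which had a log2 fold change of -3.19 in females and 0.96 (SE 0.78) in males, a difference of -4.15 (SE 1.09, limma adjusted p = 0.319). In co-ex males the red cell list took 0.101% to 0.446% of the reads after FA and 0.104% to 1.75% after O3, beside 1.28% to 13.7% and 0.293% to 0.428% in co-ex females, and its part in this difference was not tested. The next were miR-106b-3p (-2.97, SE 1.02), miR-1957b (-4.03, SE 1.51), miR-146b-5p (-1.46, SE 0.64) and miR-425-3p (-2.70, SE 1.24), all with the lower fold change in females, and each with an adjusted p of 0.968 from limma. miR-101a-3p had a log2 fold change of 0.85 (SE 0.57) in males beside 1.41 in females. Without O3 replicate 4 of the males 1 miRNA, miR-486b-5p, was called.

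The comparison with KO females asks whether the response depends on SP-A. Each genotype has its own set of libraries, normalized separately, so SP-A and library set cannot be told apart here. Of 241 miRNAs 21 differed (8.71%), 20 of them with the lower fold change in co-ex females (8.3%), and 44 stood at an unadjusted limma p under 0.05 (18.3%). The other was miR-1306-5p, with 1.40 in co-ex and -4.25 in KO females. The KO response rests on 3 libraries per exposure, and the comparison uses the same 8 co-ex female libraries as the one with males. 7 of the 14 epithelial miRNAs tested in both tables were among the 21 and 5 of the 15 repeat-like ones. The epithelial list had a median of 0.69 in the co-ex and 3.89 in the KO response, and the repeat-like list medians of 0.04 and 2.22, beside -0.14 and 0.08 over all 241.

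miR-34c-3p had log2 fold changes of -0.59 in co-ex and 7.004 in KO females, which put the difference at -7.60 (SE 1.09, limma adjusted p = 0.000825). miR-34b-3p had -0.03 and 4.25, which put the difference at -4.28 (SE 0.70, limma adjusted p = 0.00160). miR-375-3p had -0.18 and 4.17, which put the difference at -4.35 (SE 0.74). Of miRNAs outside the epithelial list, miR-92b-3p had 0.65 and 3.54, a difference of -2.88 (SE 0.52), and the repeat-like miR-3473e 0.06 and 6.57, a difference of -6.51 (SE 1.11).

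The levels after FA were not alike in both genotypes. The epithelial list took 0.239% to 0.594% of the reads of the 3 FA libraries of KO females and 3.06% to 5.62% after O3, while in co-ex females it took at least 2.30% in each library of either exposure. The repeat-like list took 1.06% to 2.71% and 3.47% to 13.2% in KO females. The miR-34 and miR-449 miRNAs together took a median of 0.0727% of the reads after FA in KO females and 1.14% after O3. Because a miRNA could pass the KO filter on its O3 libraries alone, a rise could start from few reads after FA. How near 0 the KO responses of miR-34c-3p, miR-34b-3p, miR-375-3p and miR-3473e started was not tested. The part of epithelial RNA in the difference between the genotypes was not tested. Leaving out 1 library changed the count by more than 1.5 times in 3 cases, to 10 without FA replicate 1 and 9 without FA replicate 4 of the co-ex females, and to 12 without O3 replicate 2 of the KO females. None of the red cell, lymphocyte, myeloid, let-7 or inflammatory miRNAs passed this test, which does not show that they responded alike. Without O3 replicate 1 of the co-ex females let-7a-5p, let-7d-5p, let-7e-5p, let-7f-5p and the myeloid miR-21a-5p were called, without FA replicate 2 let-7a-5p, let-7e-5p and miR-21a-5p, and without O3 replicate 1 of the KO females let-7e-5p. miR-486b-5p had -1.25 (SE 0.79) in KO females, which put the difference at -1.94 (SE 1.09, limma adjusted p = 0.383).

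**Figure D5:**
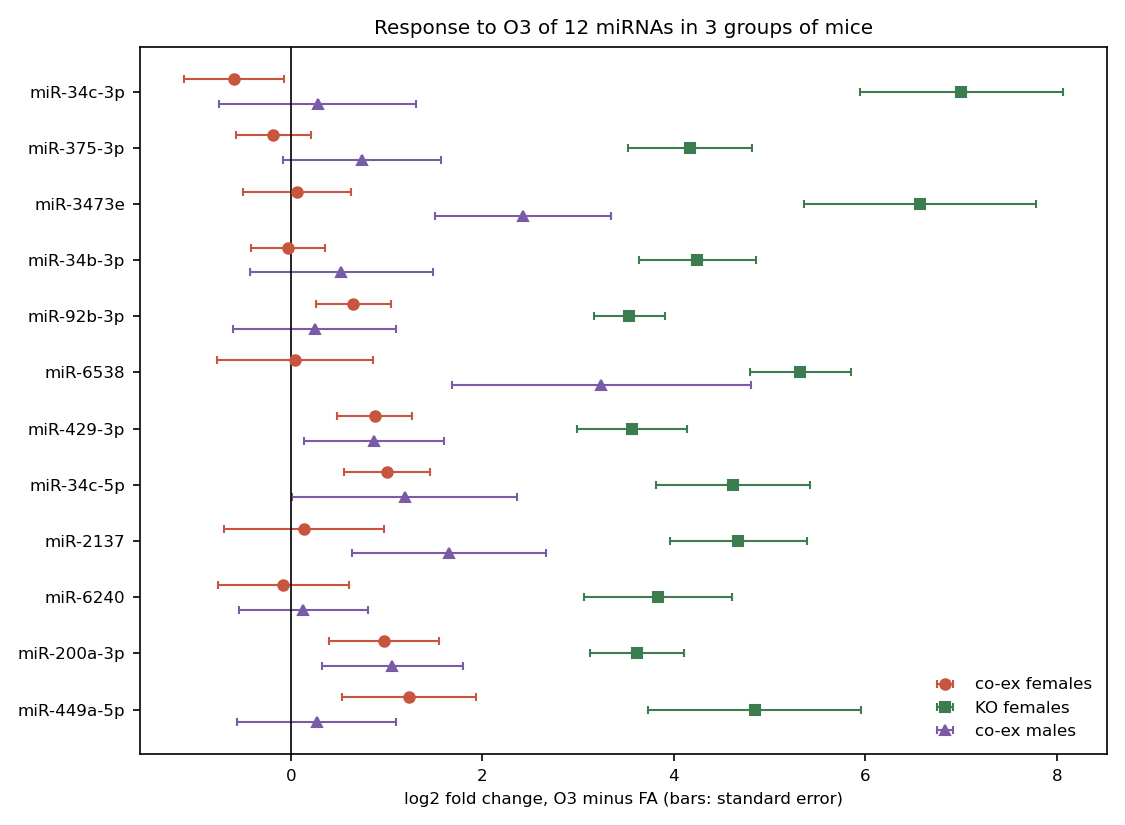
Log2 fold change of O3 against FA (x axis) of 12 miRNAs whose responses differed between co-ex females and KO females, in co-ex females (red circles), KO females (green squares) and co-ex males (purple triangles); bars are standard errors. In co-ex females these miRNAs lie between -0.59 and 1.24, and in KO females at 3.54 or above.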

How the data were processed

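Small RNA libraries of AM were made with the NEXTflex Small RNA kit v3 and sequenced on an Illumina HiSeq. The authors demultiplexed with CASAVA, filtered and trimmed reads with FASTX-Toolkit and mapped and counted miRNAs with Chimira. The genome build and miRBase release are not given in the sources used here. The deposited signal values are reads divided by a size factor for each library, equal to DESeq2's median-of-ratios factor within 8.38e-10 on the log2 scale. The authors also deposited their own log2 fold changes, p-values and q-values and a rank score from the comparison, none of which was used.

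Every value was a whole multiple of the value of 1 read (tolerance 0.01 reads), which gave the reads for depth, edgeR and DESeq2. The main test used log2(value + 1) with limma (trended prior, Benjamini-Hochberg adjustment, threshold 0.1) after a filter of 5 normalized units in at least 4 of 8 libraries. The difference of responses was an interaction term over the libraries of both tables, which were normalized separately. A miRNA had to pass the filter in both tables. For KO females the filter was 5 normalized units in at least 3 libraries, so the libraries of a single exposure could pass it. Groups came from the sample labels. Named miRNAs were those called by limma, edgeR or DESeq2, the 12 with the smallest p in each direction, the 10 most abundant, the 23 with targets listed by the study, the 4 most abundant of each list and the 5 with the smallest p in each difference. let-7d-5p, let-7e-5p, miR-106b-5p, miR-1306-5p, miR-142a-5p, miR-200a-5p, miR-200b-5p, miR-223-3p, miR-361-5p and miR-872-3p were named after their values were seen. Members and lists were chosen with earlier results of these data known. Mature sequences and hairpins were matched by name to RefSeq, GRCm38.p6.

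Alternatives were other scalings, filters, pseudocounts and priors, count tests, a replicate block and leaving out each library. A further 5 were chosen after seeing the data. Scripts were tested on simulated data. Software was Python 3.11.15, R 4.3.3, DESeq2 1.42.0, edgeR 4.0.16 and limma 3.58.1. Libraries held 41542 to 488993 reads, and intervals and floors cover counting error only.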

Additional observations from a re-analysis of the deposited data

Results flagged for a closer look

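Among 198 groups of 4 libraries examined, 19 (9.6%) held a library far from the other 3. The cutoff is set so that about 1 in 20 groups of independent, continuous values pass it. The groups here come from the same libraries and some hold ties at 0, so that rate is no standard for them. For miR-206-3p after FA and miR-130b-3p after O3 the other libraries were all at 0. FA replicate 2 was the high library for let-7f-5p (10701 normalized units), miR-23a-3p (7588), miR-29a-3p (3867), miR-30d-5p (10193) and miR-146a-5p (779.96), and the low one for miR-2137 (1408) and miR-6538 (649). Within O3, replicate 1 was low for let-7f-5p (3314) and miR-15a-5p (24.1) and high for miR-375-3p (1649). FA replicate 3 was high for the red cell miRNA miR-486b-5p (22316), and O3 replicate 4 for miR-144-5p (15.5). FA replicate 1 was high for the muscle miRNA miR-206-3p (34.2) and low for miR-34a-5p (32.9). The others were miR-34c-5p in O3 replicate 2 (578, low), miR-361-3p in FA replicate 4 (55.1, low), miR-484 in O3 replicate 3 (354, high), and miR-130b-3p in FA replicate 3 (1.75, low) and O3 replicate 3 (2.96, high).

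Of the 21 miRNAs whose response to O3 differed between co-ex females and KO females by the test of the difference itself, 12 were named by the rule for named miRNAs, and each of these 12 had the lower log2 fold change in co-ex females. Outside that rule, miR-1306-5p had the higher one. The differences were -7.60 for miR-34c-3p, -3.61 for miR-34c-5p, -4.28 for miR-34b-3p and -3.61 for miR-449a-5p among the miR-34 and miR-449 miRNAs. They were -2.64 for miR-200a-3p, -2.68 for miR-429-3p and -4.35 for miR-375-3p among the other epithelial miRNAs. The repeat-like entries gave -6.51 for miR-3473e, -5.28 for miR-6538, -4.54 for miR-2137 and -3.91 for miR-6240, and miR-92b-3p gave -2.88.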

How the results depend on the processing

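One miRNA, miR-486b-5p (lower), was called also with total-count scaling, TMM scaling, both edgeR tests, no filter, a mean of at least 50, pseudocounts of 0.1 and 5, and the replicate block. The count was 0 in 4 settings, namely without a trended prior, without O3 replicate 2, without O3 replicate 4 and with scaling to the reads outside the repeat-like list, where 14 to 17 miRNAs stood at an unadjusted limma p under 0.05. DESeq2 called 1 higher (miR-101a-3p) and 0 lower, and without its cutoff on Cook's distance 3, of which 1 was higher and 2 lower (miR-133a-3p and miR-486b-5p). Chosen after seeing the data as well, a quality weight per library gave 2 (1 higher, 1 lower), the share of repeat-like reads as a covariate 6 (1 higher, 5 lower) and the 5 libraries of high share 5 (all lower). Leaving out 1 library gave 0 to 1 calls, all lower. The limma adjusted p of miR-486b-5p over the settings ranged from 1.71e-09 to 0.516. Samples of the same number did not deviate together (correlations 0.233, -0.276, -0.141 and -0.107), and with the numbers as a replicate block 1 miRNA was called, with 0 for the difference from co-ex males and 14 for that from KO females. The difference from co-ex males gave 0 to 1 calls and that from KO females 9 to 31 as each library was left out, and 27 with total-count scaling. The difference in the share of the 10 most abundant miRNAs lay between 2.45 and 4.91 percentage points without each library. Of 2109 recomputed fold changes of 89 named miRNAs, none of the called ones changed sign, and 125 uncalled values did. The cause of these changes was not tested. The spread of libraries, not their depth, limits the abundant miRNAs, and those at a few reads are limited by depth too.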

Other observations

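Muscle miRNAs were high in 1 library. In FA replicate 1, miR-1a-3p reached 800.3 normalized units and miR-133a-3p 442. The other 7 libraries lay at 14.2 to 86.6 for miR-1a-3p and 0 to 19.2 for miR-133a-3p. miR-206-3p, also of skeletal muscle, was at 34.2 there. The list of muscle and endothelial miRNAs had 4 of 11 listed and 3 tested, with 0 above 0 and a median of -0.38. Without FA replicate 1 it was 2 of 3 above 0 with a median of 0.71, and without O3 replicate 2 the median was 0.04. Its sum was 27.7 to 1297 normalized units after FA and 52.3 to 126.2 after O3.

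Mesenchymal miRNAs were high in another library, O3 replicate 4, with 1072 normalized units of miR-143-3p, a miRNA of smooth muscle, and 434 of miR-199b-3p. The other 7 libraries lay at 80.4 to 346 and 44.2 to 231. Of 12 mesenchymal miRNAs 8 were listed and 5 tested, 2 of them above 0, with a median of -0.17. The median turned to 0.12 without FA replicate 1, 0.26 without O3 replicate 1 and 0.54 without O3 replicate 3, and the list had 2 of 2 above 0 among miRNAs averaging at least 50 normalized units.

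Of the remaining lists, none of which held a call, 4 of 8 members of the miR-17 clusters lay above 0 (median -0.03), 3 of 7 of the miR-15/16 family (median -0.15), 3 of 4 of the miR-29 family (median 0.40), 1 of 5 miRNAs that mature without Drosha (median -0.47), 1 of 3 miRNAs of hypoxia and p53 (median -0.16) and 0 of 1 of the miR-130 and miR-301 family (-0.82). Both tested members of the miR-101 family lay above 0 (median 0.84), but 1 of 3 did without FA replicate 1 (median -0.04), and the median was 0.08 without O3 replicate 4, where 3 were tested. As each library was left out, the median ranged from -0.35 to 0.19 for the miR-17 clusters, from -0.45 to 0.50 for the miR-15/16 family and from -0.49 to 0.20 for the miRNAs of hypoxia and p53, so that these have no stable direction. The miR-15/16 family had 5 of 7 above 0 without O3 replicate 1, and a median of 0.20 by edgeR and 0.21 by DESeq2. The range was 0.11 to 0.65 for the miR-29 family, where 2 of 4 members lay above 0 by edgeR and DESeq2.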
